A study of Mus musculus with 4 samples.

Results

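A set of 10 genes with which brain endothelial cells receive and answer Wnt and Norrin signals was examined in the RNA of brain endothelial cells from mouse embryos at embryonic day 18. They were chosen by name, and all 10 of 10 were listed in both deposited tables, among 14100 genes listed in both and 17905 listed in either. The groups were the genotype STINGECKO (libraries 1 and 2) and wild type (WT, libraries 3 and 5), all labelled C57BL/6, with 2 libraries per genotype and no treatment named in the labels. The series' title concerns STING, the adaptor of cytosolic DNA sensing encoded by Tmem173, in endothelial cells, and the labels do not spell out the genotype further. They do not state which part of a gene was altered and with which driver, how cells were isolated and whether animals were pooled. The design text speaks of triplicates, and 4 libraries were analysed here. The comparison addressed whether these genes differ between the STINGECKO and WT libraries.

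Wnt and Norrin signalling is the pathway that directs vessels into the developing brain and gives them barrier properties. Wnt7a and Wnt7b, made by neural cells, are recognised by Reck together with the adhesion receptor Adgra2 (older symbol Gpr124), and Norrin, the product of Ndp, binds Fzd4 with the help of the tetraspanin Tspan12. Frizzled receptors act with the coreceptors Lrp5 or Lrp6 to stabilise beta-catenin (Ctnnb1), which enters the nucleus, binds the DNA-binding proteins Lef1 and Tcf7 and activates targets that include the feedback inhibitors Axin2 and Apcdd1.

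Gene positions are those of GRCm38, which the tables carry. Fzd4 (ENSMUSG00000049791) spans chromosome 7, 89404355 to 89413134, plus strand. Axin2 (ENSMUSG00000000142) spans chromosome 11, 108920349 to 108950783, plus strand. Lef1 (ENSMUSG00000027985) spans chromosome 3, 131110471 to 131224356, plus strand. RefSeq promoter windows of 300 bases (250 before to 50 after a transcript start, build GRCm38.p6) were found for 6 of the 10 genes, 10 windows in all. They were searched on either strand for CTTTGA, the core of the sequence bound by Lef1 and Tcf7 proteins, and for CTTTGAT, a longer form that contains it. The core occurred in 1 of the 10 windows and in 16% of all 32851 windows, and the longer form in 0 of the 10 and in 3.73% of all. Printed here are 3 windows, those of the receptor gene with the smallest p, of the best known target, and the only window with the core. Capitals mark the core, here read as TCAAAG on the printed strand, and a window without it is in lower case throughout.
Fzd4, chr7:89404116-89404415, plus strand: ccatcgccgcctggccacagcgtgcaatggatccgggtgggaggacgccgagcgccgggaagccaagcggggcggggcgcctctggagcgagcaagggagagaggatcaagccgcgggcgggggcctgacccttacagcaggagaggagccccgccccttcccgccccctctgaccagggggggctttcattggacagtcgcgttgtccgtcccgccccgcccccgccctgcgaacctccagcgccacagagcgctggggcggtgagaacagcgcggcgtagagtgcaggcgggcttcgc
Axin2, chr11:108920099-108920398, plus strand: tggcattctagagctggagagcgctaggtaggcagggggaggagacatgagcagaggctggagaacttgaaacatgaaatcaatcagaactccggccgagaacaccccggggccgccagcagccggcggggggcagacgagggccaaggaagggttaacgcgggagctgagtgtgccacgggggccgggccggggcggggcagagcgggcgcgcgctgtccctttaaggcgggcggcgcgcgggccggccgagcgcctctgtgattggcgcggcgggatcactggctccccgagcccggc
Lef1 internal start, chr3:131156044-131156343, plus strand: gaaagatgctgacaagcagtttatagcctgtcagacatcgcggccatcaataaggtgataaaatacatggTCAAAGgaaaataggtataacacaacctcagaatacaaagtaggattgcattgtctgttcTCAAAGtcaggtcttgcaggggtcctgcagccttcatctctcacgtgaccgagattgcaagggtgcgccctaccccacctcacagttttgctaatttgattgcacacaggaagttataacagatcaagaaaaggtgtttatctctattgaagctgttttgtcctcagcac
The Lef1 window surrounds a RefSeq start 45823 bases downstream of the gene's first base, where GENCODE vM21 has no Lef1 exon, and its matches begin 180 and 120 bases upstream of that start. The Fzd4 and Axin2 windows held 32 and 31 CpG dinucleotides and the Lef1 window held 5. Reads were counted per gene, so transcripts from separate starts were not told apart.

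The libraries held 18610298 and 22169261 listed reads in STINGECKO 1 and 2 and 21472677 and 20591981 in WT 3 and 5. Levels are given as CPM, read counts brought to a common library total, with library sizes scaled by TMM (trimmed mean of M values). All 10 endothelial marker genes had reads in every library, with summed levels of 9578 and 9281 CPM in STINGECKO and 8938 and 8486 CPM in WT. Pericyte and smooth muscle markers summed to 10185 and 10651 CPM in STINGECKO and 8304 and 7700 CPM in WT, and fibroblast markers to 277 and 286 CPM against 234 and 186 CPM. Astrocyte markers summed to 66.7 and 10.2 CPM in STINGECKO and 131 and 91.4 CPM in WT, and neuron markers to 72.0 and 42.2 CPM against 158 and 108 CPM. Macrophage markers summed to 1388 CPM in WT 5 and 417 to 556 CPM in the others. Markers of pericytes and macrophages thus had reads in every library, so the levels given here are those of mixed RNA, not of endothelial cells alone. Tmem173 had 67 and 182 reads in STINGECKO and 97 and 130 in WT, so its count did not separate the labels. Xist had 0 reads in STINGECKO 1 and 876 in STINGECKO 2, against 2347 and 3374 in WT, and the Y-linked Ddx3y had 3623 reads in STINGECKO 1 and 0 in WT 3. STINGECKO 2 stood apart in zeros: 13.2% of genes listed in both tables had 0 reads there, against 2.39% to 5.25% in the other libraries.

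None of the 10 genes passed the genotype test. Over 13365 genes, edgeR's quasi-likelihood (QL) test called 0 of 10 after Benjamini-Hochberg adjustment, each with an adjusted p of 1.000, where it called 0% of all genes. DESeq2, the edgeR likelihood ratio test and limma-voom also called 0 of 10, where they called 0.651%, 0.247% and 0% of all genes. At an unadjusted p under 0.05 there was 1 of 10, Fzd4, where 4.80% of all genes lay below that level. The fold changes were above 0 in 4 of 10 genes, against 48.2% of all genes, and their median log2 value was -0.06, against -0.03 for all genes. This median was -0.23 without STINGECKO 1, 0.04 without STINGECKO 2, 0.17 without WT 3 and -0.29 without WT 5, where the median of all genes was -0.20, -0.04, 0.00 and 0.05. Libraries of the genotypes did not overlap in 3 of 10 genes, 1 with STINGECKO above and 2 with STINGECKO below, where 34.4% of all genes did not overlap, 15.4% above and 19.0% below. With 2 libraries against 2, an exact two-sided permutation test of a single gene cannot give a p below 0.333. No label ties the libraries to separate animals, and the p-values reflect only how these libraries vary, which may be technical in part. Xist had 0 reads in STINGECKO 1 and 876 in STINGECKO 2, so these were not repeats of the same RNA. The part of sex in the differences within and between genotypes was not tested.

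**Figure D1:**
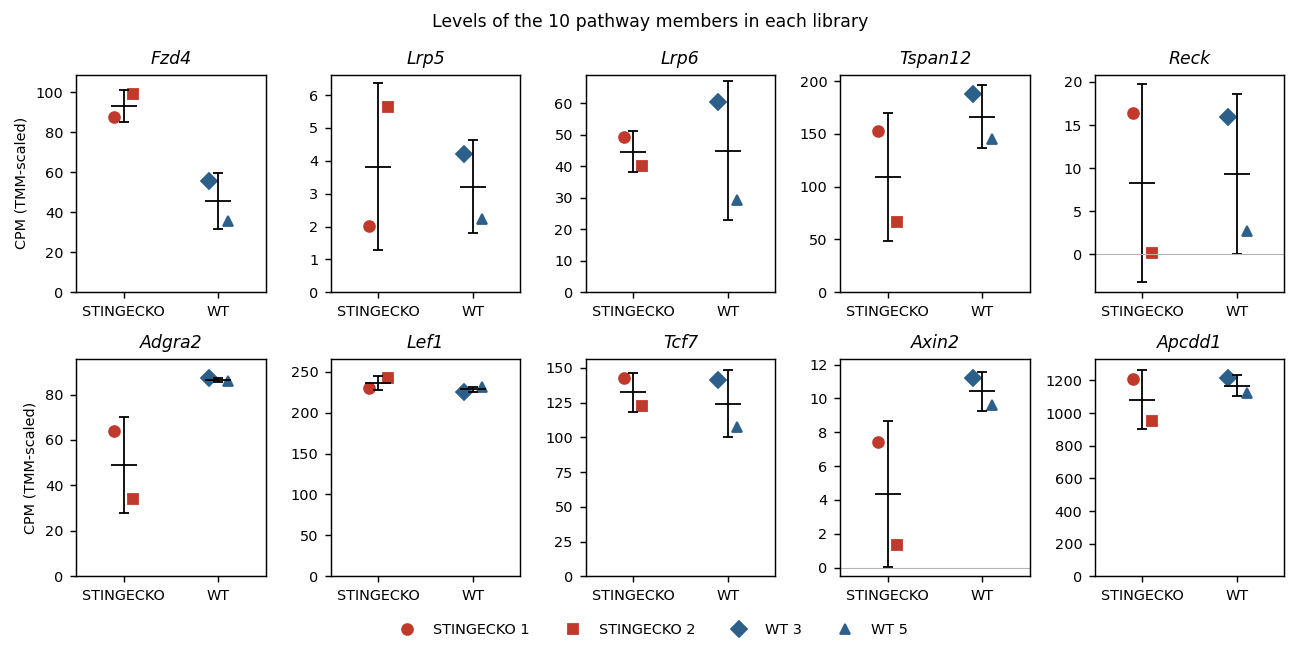
Level of each of the 10 genes in CPM (vertical axes, separate scales) in the libraries of STINGECKO (left, red) and WT (right, blue). Points are libraries, and bars are the mean ± SD of 2 libraries. Fzd4 was at 87.3 and 98.9 CPM in STINGECKO against 55.4 and 35.7 CPM in WT, and Lef1 lay between 226 and 242 CPM in every library.

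Fzd4, the Frizzled receptor for Norrin, was, of the 6 receptor and coreceptor genes, the one with a higher level in each STINGECKO library than in each WT library. It was at 87.3 CPM in STINGECKO 1 and 98.9 CPM in STINGECKO 2, against 55.4 CPM in WT 3 and 35.7 CPM in WT 5. The means were 93.1 ± 8.16 CPM in STINGECKO and 45.6 ± 13.96 CPM in WT (SD, n = 2 each). The log2 fold change was 1.03 (SE 0.39), a 2.04-fold higher mean (unadjusted p = 0.0447, adjusted p = 1.000, edgeR QL test). The log2 value lay between 0.76 and 1.39 when each library was left out in turn. The summed pericyte and smooth muscle, fibroblast and endothelial markers were likewise higher in each STINGECKO library, and their part in the Fzd4 level was not tested. Not every marker followed its sum. The endothelial Pecam1 was lower in each STINGECKO library (527 and 473 against 620 and 596 CPM), as was the pericyte marker Cspg4 (83.8 and 152 against 155 and 181 CPM). Acta2, a smooth muscle marker, had 0 reads in each STINGECKO library and 31 and 55 in WT. Rgs5, at 6849 and 7225 against 5591 and 4876 CPM, made up most of the pericyte and smooth muscle sum. In bulk RNA, more cells of a type and more RNA per cell cannot be told apart.

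Tspan12, the coreceptor that raises the response of Fzd4 to Norrin (chromosome 6, 21771395 to 21852515, minus strand), did not show the pattern of Fzd4. It was at 152 CPM in STINGECKO 1 and 66.4 CPM in STINGECKO 2, against 187 CPM in WT 3 and 145 CPM in WT 5. STINGECKO 2 was lowest, STINGECKO 1 lay between the WT libraries, and the genotypes overlapped. This gave a log2 fold change of -0.61 (SE 0.45), and it was -0.12 without STINGECKO 2 and -1.32 without STINGECKO 1. Levels per length of Fzd4 relative to Tspan12 differed accordingly. The ratio of CPM per kilobase of exon was 0.282 and 0.734 in STINGECKO and 0.146 and 0.121 in WT. The genotypes did not overlap in this ratio, as they did not in Fzd4 itself. No test was made of the ratio, and no share over other gene pairs was computed.

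Adgra2, the adhesion receptor that with Reck makes the endothelium responsive to Wnt7a and Wnt7b (chromosome 8, 27085583 to 27123436, plus strand), was lower in each STINGECKO library than in each WT library. It was at 64.0 CPM in STINGECKO 1 and 34.1 CPM in STINGECKO 2, against 87.1 CPM in WT 3 and 85.9 CPM in WT 5. The WT libraries were close together and the STINGECKO libraries differed 1.88-fold. Adgra2 had a log2 fold change of -0.82 (SE 0.44, unadjusted p = 0.119, adjusted p = 1.000, edgeR QL test), which was -0.43 without STINGECKO 2 and -1.34 without STINGECKO 1. Summed astrocyte and neuron markers were also lower in each STINGECKO library and lowest in STINGECKO 2, and their part in the Adgra2 level was not tested. Not every marker followed its sum. The neuron marker Rbfox3 was highest in STINGECKO 2, at 6.43 and 14.5 CPM in STINGECKO and 1.20 and 8.92 CPM in WT. In STINGECKO 2, 7 of 10 astrocyte markers had 0 reads or were not listed.

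Reck, the membrane-anchored protein that binds Wnt7 directly (chromosome 4, 43875530 to 43944806, plus strand), varied most between libraries of 1 genotype. It had 300 reads in STINGECKO 1 and 2 in STINGECKO 2, against 344 in WT 3 and 56 in WT 5. These were 16.4 and 0.0915 CPM in STINGECKO and 15.9 and 2.70 CPM in WT, with a 95% exact binomial interval of 0.0111 to 0.330 CPM for STINGECKO 2 that covers counting error alone. STINGECKO 1 and WT 3, which share a deposited table, were thus alike. The low values fell in STINGECKO 2 and WT 5, the libraries of the other table. The log2 fold change of -0.18 had an SE of 2.13, and it was 0.82 without STINGECKO 2, 1.61 without WT 3 and -6.58 without STINGECKO 1. With a block by deposited table it was -2.23, and in limma-voom -2.50. Low read numbers were frequent in STINGECKO 2: of 3407 genes whose mean over the remaining libraries was 5 to 20 CPM, 18.5% had at most 2 reads there, against 2.60% to 5.52% for the same limit in each other library.

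The coreceptors Lrp5 and Lrp6, related transmembrane proteins that form the signalling receptor with Frizzled, overlapped between genotypes. Lrp6 (chromosome 6, 134446476 to 134566965, minus strand) was at 49.1 and 39.9 CPM in STINGECKO and 60.4 and 29.2 CPM in WT, a log2 fold change of -0.01 (SE 0.54). Its WT libraries differed 2.07-fold and enclosed the STINGECKO values. Lrp5 (chromosome 19, 3584828 to 3686564, minus strand) had few reads, 37 and 123 in STINGECKO and 91 and 46 in WT, which were 2.02 and 5.62 CPM against 4.21 and 2.22 CPM. In Lrp5 the log2 fold change was 0.25 (SE 1.42), and it was -0.66 without STINGECKO 2 and 0.81 without STINGECKO 1. Lrp6 was above Lrp5 in every library per length, with ratios of 17.3 and 5.05 in STINGECKO and 10.2 and 9.38 in WT.

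Lef1, which brings beta-catenin to Wnt target genes, was the steadiest of the 10 genes. It was at 230.1 CPM in STINGECKO 1 and 242 CPM in STINGECKO 2, against 226 CPM in WT 3 and 231 CPM in WT 5. The highest library was 1.07-fold above the lowest, and the genotypes overlapped. For Lef1 the log2 fold change was 0.05 (SE 0.20) and stayed between 0.02 and 0.08 when each library was left out. Tcf7, the related factor also known from T cells (chromosome 11, 52252371 to 52283014, minus strand), was at 142 and 122 CPM in STINGECKO and 141 and 107 CPM in WT. Its log2 fold change was 0.09 (SE 0.28), with a 1.33-fold span over the libraries. T cell markers were at or near 0: 4 of 7, among them Cd3e and Cd8a, were not listed, and the list summed to 3.76 and 0 CPM in STINGECKO and 1.39 and 4.10 CPM in WT. The ratio of Lef1 to Tcf7 per length was 0.482 and 0.591 in STINGECKO and 0.478 and 0.642 in WT.

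The feedback targets differed from each other in level and in spread. Axin2, a scaffold of the complex that degrades beta-catenin, had 136 and 29 reads in STINGECKO and 243 and 199 in WT. These were 7.41 and 1.33 CPM in STINGECKO and 11.2 and 9.60 CPM in WT, so each STINGECKO library lay below each WT library. The means were 4.37 ± 4.30 CPM in STINGECKO and 10.4 ± 1.16 CPM in WT (SD, n = 2 each). The log2 fold change was -1.25 (SE 1.33, unadjusted p = 0.389, adjusted p = 1.000, edgeR QL test). It was -0.48 without STINGECKO 2 and -2.97 without STINGECKO 1. By the same choice of genes, 28.7% had at most 29 reads in STINGECKO 2, against 7.81% to 10.9% for that limit in each other library. The astrocyte and neuron sums were lowest in the same library and lower in each STINGECKO library, and their part in the Axin2 level was not tested. Not every marker followed these sums, and Rbfox3 was highest in STINGECKO 2.

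Apcdd1, a membrane protein that binds Wnt and inhibits its signal (ENSMUSG00000071847, chromosome 18, 62922327 to 62953195, plus strand), was the most abundant of the 10 genes. It had 22230 and 20878 reads in STINGECKO and 26231 and 23282 in WT, which were 1212 and 955 CPM against 1213 and 1123 CPM. STINGECKO 1 and WT 3 were alike, STINGECKO 2 was lowest, and the genotypes overlapped, with a log2 fold change of -0.11 (SE 0.19). Per length, Apcdd1 exceeded Axin2 at least 46.1-fold in every library and 308-fold in STINGECKO 2.

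**Figure D2:**
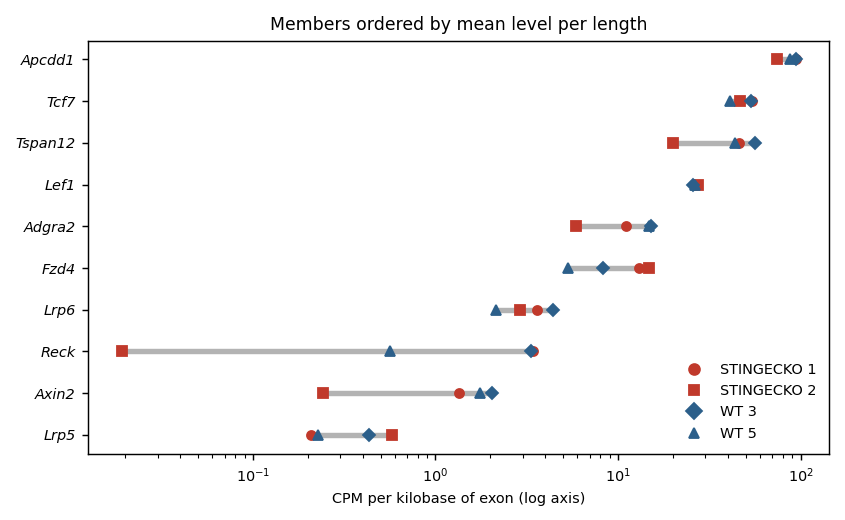
Level of the 10 genes in CPM per kilobase of exon (horizontal log axis), ordered from the highest mean at the top; points are libraries and grey bars run from the lowest to the highest. Apcdd1 had the highest mean, at 87.4, and Lrp5 the lowest, at 0.361, and only Reck spanned more than 100-fold.

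Per length, the genes fell into 4 steps whose ranges over the 4 libraries did not overlap. Apcdd1 stood alone at 87.4 ± 9.43 CPM per kilobase of exon (SD over all 4 libraries). Tcf7, Tspan12 and Lef1 followed at 48.9 ± 6.39, 41.6 ± 15.4 and 26.4 ± 0.779, where Tspan12 overlapped Tcf7 and Lef1. Adgra2 and Fzd4 were at 11.7 ± 4.30 and 10.3 ± 4.31 and overlapped each other. Lrp6, Reck, Axin2 and Lrp5 were at 3.27 ± 0.970, 1.83 ± 1.79, 1.34 ± 0.788 and 0.361 ± 0.176, each overlapping the next. The nuclear factors and Tspan12 were thus above the receptor Fzd4 per length in every library.

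**Figure D3:**
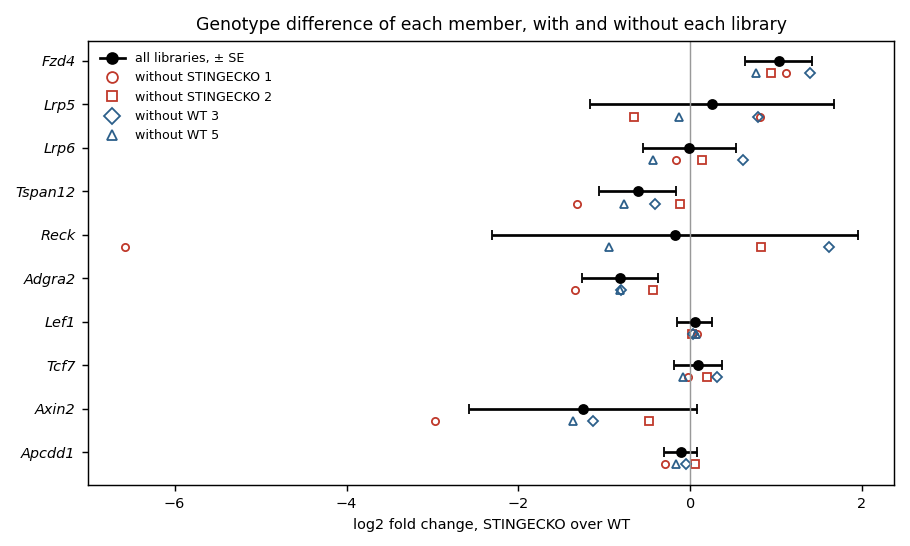
Log2 fold change of STINGECKO over WT (horizontal axis) for each gene. Black points and bars are the estimate ± SE with all libraries, and open symbols are estimates with the named library left out. The SE was worked back from the test statistic. Fzd4 stayed between 0.76 and 1.39, Lef1 between 0.02 and 0.08, and Reck ran from -6.58 to 1.61.

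Libraries of the same genotype also differed. STINGECKO 1 and 2 differed at least 2-fold in 4 of 10 genes (Lrp5, Tspan12, Reck and Axin2), where 47.0% of all genes did. Tspan12, Reck and Axin2 were higher in STINGECKO 1, by 2.30-fold, 179-fold and 5.59-fold, while Lrp5 was 2.79-fold higher in STINGECKO 2. WT 3 and WT 5 differed at least 2-fold in 2 of 10 genes (Lrp6 and Reck), where 33.3% of all genes did. The authors' deposited table of STINGECKO 1 over WT 3 marked 1 of 10 genes as different, Lrp5, where it marked 40.9% of all genes. The authors' deposited table of STINGECKO 2 over WT 5 marked 6 of 10, where it marked 52.1% of all genes. Lrp5 had a log2 value of -1.09 in the first and 1.31 in the second of the authors' deposited tables. Each of those tables compares 1 library with 1 library.

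The other genes of the pathway were taken from 6 lists of 98 genes in all, of which 61 were tested. Of these, 0 passed the edgeR QL test, where it called 0% of all genes. At an unadjusted p under 0.05 there were 2, Ctnnbip1 and Dkk3, where 4.80% of all genes lay below that level. DESeq2 called 1, and the edgeR likelihood ratio test and limma-voom 0, where they called 0.651%, 0.247% and 0% of all genes. The genotypes did not overlap in 20 of 61, where 34.4% of all genes did not overlap. STINGECKO was above in 13 and below in 7, against 15.4% and 19.0% of all genes.

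Ligand RNA was low or not listed. Of 24 ligand genes, 3 were tested, 7 were listed in 1 table only and 14 were not listed. Wnt5a, a ligand best known for signalling without beta-catenin, was at 24.0 and 1.46 CPM in STINGECKO and 27.6 and 30.3 CPM in WT. Its low value was that of STINGECKO 2, and its log2 fold change of -1.18 (SE 1.31) was -0.26 without that library, -4.30 without STINGECKO 1, -2.26 with a block by deposited table and -2.47 in limma-voom. Wnt2b had 8 and 0 reads in STINGECKO and 84 and 43 in WT, and Wnt5b had 9 and 0 against 38 and 6. Ndp, which encodes Norrin, had 87 reads in STINGECKO 1 and 0 in WT 3. Wnt7a had 6 and 0 reads in the same libraries, and Wnt7b had 0 in STINGECKO 2 and 85 in WT 5. Each of these 3 was listed in only 1 of the tables.

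Among 16 other receptors, 10 were tested, with 1 above and 0 below without overlap, where 15.4% and 19.0% of all genes were (0 called), and with a median log2 fold change of 0.09. Ptk7, a planar polarity coreceptor, was the most abundant at 77.5 and 61.0 CPM in STINGECKO and 58.2 and 88.5 CPM in WT. The atypical Wnt receptor Ryk was at 18.8 and 35.4 CPM against 30.1 and 56.0 CPM. Fzd1 was at 16.4 and 44.4 CPM against 21.8 and 29.5 CPM, and Fzd6 at 6.87 and 3.38 CPM against 6.10 and 7.19 CPM. The ranges of the genotypes overlapped in each of these 4. The receptor gene without overlap was Fzd2, with 44 and 41 reads in STINGECKO and 0 and 11 in WT.

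Of 17 transducers, 16 were tested and 12 had a log2 fold change above 0, with a median of 0.25 and 0 called. The number above 0 was 10 without STINGECKO 1, STINGECKO 2 or WT 5, 11 without WT 3, and 10 without scaling factors. STINGECKO was above WT without overlap in 5 of 16 and below in 1, where 15.4% of all genes were above and 19.0% below, and 48.2% had a value above 0. Ctnnb1, beta-catenin itself, was at 685 and 552 CPM in STINGECKO and 509 and 509 CPM in WT, a log2 fold change of 0.28 (SE 0.19). Csnk1d, a casein kinase, was at 214 and 178 CPM against 168 and 135 CPM, with a log2 fold change of 0.37 (SE 0.25). Csnk1a1, the casein kinase that primes beta-catenin for degradation, was at 618 and 550.2 CPM against 542 and 605 CPM, and the kinase Gsk3b at 204 and 212 CPM against 243 and 167 CPM. The last 2 overlapped between genotypes. The other genes without overlap were Btrc and Fbxw11, subunits of the ligase that marks beta-catenin for degradation, Axin1, a scaffold related to Axin2, and, below, Dvl3. Btrc was at 35.6 and 84.6 CPM in STINGECKO and 24.8 and 33.7 CPM in WT, and Axin1 at 25.6 and 16.6 CPM against 4.16 and 11.9 CPM. Fbxw11 was at 57.7 and 47.3 CPM against 42.0 and 43.4 CPM, and Dvl3, a relay between Frizzled and Axin, at 14.2 and 13.4 CPM against 16.3 and 16.7 CPM.

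All 12 other nuclear factors were tested, with a median log2 fold change of -0.11 and 0 called. A value above 0 was found in 5 of 12, against 48.2% of all genes. That count was 7 without STINGECKO 1, 9 without STINGECKO 2, 8 without WT 3 and 8 without WT 5. STINGECKO was above WT without overlap in 3 and below in 1, against 15.4% and 19.0% of all genes. Ctnnbip1, which encodes a small protein that keeps beta-catenin from binding TCF factors, had the smallest unadjusted p of the 61 genes. It was at 244 CPM in STINGECKO 1 and 385 CPM in STINGECKO 2, against 110.2 CPM in WT 3 and 131 CPM in WT 5. The log2 fold change was 1.38 (SE 0.30, unadjusted p = 0.00576, adjusted p = 0.977, edgeR QL test). DESeq2 called it with an adjusted p of 0.014, while in the other 12 alternatives the adjusted p lay between 0.076 and 1.000. Tcf7l2, a relative of Tcf7, was at 95.2 and 167 CPM against 92.0 and 73.2 CPM, with a log2 fold change of 0.67 (SE 0.38) that was 0.21 without STINGECKO 2. Pygo2, a beta-catenin coactivator, was at 55.6 and 69.4 CPM against 51.0 and 52.1 CPM (log2 fold change 0.28, SE 0.38). Tle5, a member of the Tle family listed under its older symbol Aes, was at 75.4 and 90.1 CPM against 77.5 and 57.1 CPM. Tle1, a corepressor of the same family, was the 1 gene with STINGECKO below without overlap, at 33.6 and 32.9 CPM against 46.8 and 40.0 CPM.

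Of 19 inhibitors, 10 were tested, and 8 had a log2 fold change above 0, with a median of 0.42 and 0 called. The count above 0 was 6 without STINGECKO 2 or without WT 5, and 48.2% of all genes were above 0. STINGECKO was above WT without overlap in 4 of 10 and below in 2, against 15.4% and 19.0% of all genes. Nkd1, an intracellular feedback inhibitor that Wnt signalling induces, was the most abundant at 502 and 417 CPM in STINGECKO and 307 and 361 CPM in WT (log2 fold change 0.46, SE 0.21, unadjusted p = 0.0787, adjusted p = 1.000, edgeR QL test). Znrf3, a ligase that removes Frizzled receptors and is itself a Wnt target, was at 64.2 and 68.0 CPM against 78.8 and 105 CPM (log2 fold change -0.48, SE 0.33). Nkd2 was at 24.3 and 92.3 CPM against 34.6 and 49.0 CPM. Dkk3, of the Dickkopf family, was at 40.7 and 56.1 CPM against 12.5 and 21.3 CPM, with a log2 fold change of 1.52 (SE 0.59, unadjusted p = 0.0483, adjusted p = 1.000, edgeR QL test). The secreted inhibitors Sfrp1 and Sfrp2 were also above without overlap, where WT 5 was lowest. Sfrp1 was at 21.3 and 27.8 CPM in STINGECKO and 18.8 and 2.99 CPM in WT, and Sfrp2 at 11.5 and 11.7 CPM against 8.74 and 1.74 CPM. The fibroblast and the pericyte and smooth muscle marker sums were also higher in each STINGECKO library and lowest in WT 5. Not every marker followed its sum, and Cspg4 was lower in each STINGECKO library. The smooth muscle marker Acta2 was lower as well, with 0 reads in each STINGECKO library against 31 and 55 in WT. The part of these cell types in the levels of Dkk3, Sfrp1 and Sfrp2 was not tested. Dkk2 was below, at 3.71 and 7.45 CPM against 9.66 and 12.5 CPM.

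**Figure D4:**
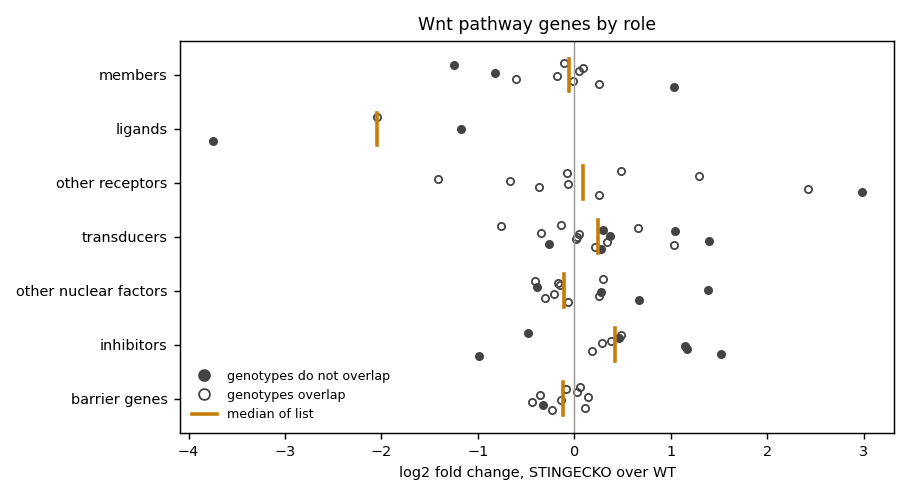
Log2 fold change of STINGECKO over WT (horizontal axis) for the 10 genes described singly (top row) and the 61 tested genes of the 6 lists. Each point is a gene, filled where the genotypes did not overlap, and the orange bar is the median of the list, from -2.05 for the 3 ligands to 0.42 for the inhibitors.

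The genes of the brain endothelial barrier, several of which Wnt signalling induces, overlapped between genotypes in 9 of 10, and 0 were called. The 1 of 10 without overlap compares with 34.4% of all genes. Their median log2 fold change was -0.12. Cldn5, a tight junction protein, was at 10487 and 12536 CPM in STINGECKO and 10853 and 10529 CPM in WT. Slc2a1, the glucose transporter, was at 7455 and 4665 CPM against 7088 and 7114 CPM, with STINGECKO 2 apart from the others. Mfsd2a, a lipid transporter that limits transcytosis, was at 1759 and 1452 CPM against 2013 and 2013 CPM (log2 fold change -0.33, SE 0.17), the 1 gene of the list without overlap. Spock2, a proteoglycan, spanned 886 CPM in WT 5 to 1346 CPM in WT 3, with STINGECKO between them. Plvap, which marks leaky vessels and is lost as the barrier forms, was at 102 and 85.3 CPM against 79.6 and 101 CPM.

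Genes whose levels followed those of Fzd4 and Lef1 most closely were sought among 9721 genes with a mean of at least 5 CPM and reads in all 4 libraries. Likeness was the root mean square difference of log2 CPM after centring each gene over the 4 libraries. For Fzd4 these were Nub1 (0.0393), Smad6 (0.0438) and Alg6 (0.0598). Smad6, an inhibitor of BMP signalling, was at 33.2 and 37.8 CPM in STINGECKO and 21.6 and 14.7 CPM in WT. For Lef1 they were Vim (0.0100), Cipc (0.0139) and Gstm7 (0.0144), all nearly level across the libraries.

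Counting could mix strands for some of the genes, since no source used here states a strand setting. On the opposite strand, exons of Gm43352 shared 13.7% of the exon bases of Lef1, Gm11670 3.8% of Axin2, Gm30270 2.96% of Tspan12 and Brf2 1.26% of Adgra2. Gm43352 and Gm11670 were not listed, Gm30270 had 53 reads in STINGECKO 1 and 0 in WT 3, and Brf2 had 225 and 199 reads in STINGECKO and 271 and 177 in WT. None of the other 6 genes shared exon bases with another annotated gene.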

How the data were processed

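RNA of 4 libraries was measured by sequencing. The submitters' processing notes name HTSeq 0.6.0, TopHat2 2.0.12, Bowtie2 2.2.3 and, as build, mm9. In the tables, however, 89.6% of 17872 matched genes had the GRCm38 positions of GENCODE vM21, the annotation that gave exon lengths. The deposited count columns hold raw reads of each gene. The authors' normalized columns are CPM, with a small value in place of 0, and were only checked against the counts. The authors' fold column is the ratio of those CPM values, their log2 column its log2, and each of the authors' p-values rests on 1 library per genotype. A row with a 0 had at least 5 reads in its other library.

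Tables were merged by gene identifier. The genotype test used edgeR 4.0.16 in R 4.3.3 (quasi-likelihood test, TMM, filterByExpr at minimum count 10, Benjamini-Hochberg adjustment over 13365 genes, threshold 0.05). It was tried on simulated counts with a dispersion (variation beyond counting error) of 0.05, where these data had a common dispersion of 0.782. That trial therefore does not show what the test can call at the spread of these libraries. Each SE given was worked back from this test, as the absolute log2 fold change over the square root of its F statistic. Leaving out a library, DESeq2 1.42.0, limma-voom (limma 3.58.1), the edgeR likelihood ratio test, filters, scalings, blocking by deposited table and adding the genes of 1 table with missing values at 0 were alternatives. The 10 genes and the lists were chosen with earlier results of these data known. All 10 were named, with up to 4 genes of highest mean CPM from each list, and 3 genes most like Fzd4 and Lef1. Other list genes, among them Ndp, Wnt7a, Wnt7b, Plvap and those without overlap between genotypes, were named after their values were seen. Recounting list genes and named list genes under the alternatives was added after seeing the data.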

Additional observations from a re-analysis of the deposited data

How the results depend on the processing

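The edgeR quasi-likelihood test called 0 of 13365 genes, 642 of which had an unadjusted p under 0.05. DESeq2 called 87, the edgeR likelihood ratio test 33 and limma-voom 0. In all 13 alternatives 0 of the 10 genes were called, and the smallest adjusted p of any was 0.194, for Tspan12 without STINGECKO 1. Of the 7 genes whose genotypes overlapped, Tspan12 and Lef1 kept the sign of their log2 fold change in all 13. In Fzd4, Adgra2 and Axin2 the genotypes did not overlap, so leaving out a library could not turn the sign. Lrp6, at -0.01, was 0.00 with DESeq2 size factors and in DESeq2, 0.06 in limma-voom and 0.08 with a block by deposited table. Leaving out each library gave ranges of -0.43 to 0.61 for Lrp6, -0.66 to 0.81 for Lrp5, -6.58 to 1.61 for Reck, -0.08 to 0.31 for Tcf7 and -0.29 to 0.06 for Apcdd1, which include both signs. The cause was not tested. The number of the 10 with a value above 0 was 4 with all libraries, 3 without STINGECKO 1, 6 without STINGECKO 2, 6 without WT 3 and 2 without WT 5. With 2 libraries per genotype a left-out library leaves its genotype with 1, assumed to vary like the others. The genotypes share no replicate number, so the labels give no pairing by replicate. The block by deposited table sets STINGECKO 1 beside WT 3 and STINGECKO 2 beside WT 5. Whether these libraries belong together in the experiment is not stated. Of the 10 genes, only Lef1 had 95% counting intervals that overlapped between STINGECKO 1 and 2 (223.2 to 237.1 against 235.4 to 248.5 CPM). In Reck they were 14.6 to 18.3 against 0.0111 to 0.330 CPM, and in Lrp5 1.42 to 2.78 against 4.67 to 6.71 CPM. The spread of the STINGECKO libraries thus exceeded counting error in each of the 10 genes whose intervals lay apart. For Lef1 the overlap does not decide this, since levels that differ can have overlapping intervals.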

Other observations

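Genes of the pathway that only 1 table lists were outside the genotype test. In the table of STINGECKO 1 and WT 3, Wnt4 had 164 reads in STINGECKO 1 and 0 in WT 3, Sfrp4, a secreted Wnt inhibitor, 74 and 0, and Dkk4, a Dickkopf inhibitor that binds Lrp5 and Lrp6, 49 and 3. In the same libraries Wnt9b had 0 reads in STINGECKO 1 and 117 in WT 3, Wif1, a secreted Wnt-binding inhibitor, 0 and 116, and Fzd10 0 and 34. In the table of STINGECKO 2 and WT 5, Lgr4, a receptor for R-spondins, had 0 reads in STINGECKO 2 and 162 in WT 5, and Wnt9a had 0 and 18. Each value compares 1 library with 1 library and has no replicate check. These genes were named after their values were seen.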
